A study of Homo sapiens with 6 samples.

Results

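The genes described are 10 that build the desmosome: *DSP*, *DSG2*, *DSG3*, *DSC2*, *DSC3*, *PKP1*, *PKP2*, *PKP3*, *JUP* and *PERP*. They were taken by symbol from a table of 21293 genes, and all 10 have a row in it. A desmosome is a spot-like junction that fastens neighbouring epithelial cells to each other and anchors their keratin filaments at the membrane. Its desmosomal cadherins, the desmogleins and desmocollins, meet those of the next cell outside the membrane, and their tails bind the armadillo proteins plakoglobin and plakophilin inside. The armadillo proteins in turn hold desmoplakin, the plakin that grips the keratin filaments, and PERP is a small tetraspan membrane protein needed for the junction in stratified epithelia.

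The RNA-seq data came from H2087-LCC cells, a latency competent cancer (LCC) population that was selected in mice from a human lung adenocarcinoma (LUAD) line and that the labels call a dormant metastatic derivative. One group was kept for 3 days in SB505124 (SB), an inhibitor of the type I TGFβ receptor that sets the baseline without TGFβ signaling, one was kept for 3 days in TGFβ, and one for 7 days in TGFβ, with 2 libraries in each group. The cells were the same population in all 3 groups, and the labels give no other allele or agent. There was no SB library at 7 days, so the effect of TGFβ and that of the longer time in culture cannot be told apart in the comparison of 7 days with SB. In the study, the libraries within a group are called technical replicates, and no source used here ties them to separate cultures, so the p-values measure only the spread between these libraries. With 2 libraries against 2, an exact permutation test of a single gene cannot go below p = 0.333, and the tests below are those of limma in one fit across genes.

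Values are normalized counts, that is, reads assigned to a gene after division by a library size factor and rounding by the authors, and they summed to between 34306283 and 36340734 per library. Of the epithelial markers, all 6 were detected, and their summed normalized count ran from 101970 to 112407 for SB, 98169 to 110423 at 3 days and 88277 to 101192 at 7 days. Within that list, *EPCAM*, an epithelial adhesion molecule, went from 10180 and 9106 in SB to 2988 and 3277 at 7 days, and *CDH1*, which encodes E-cadherin of the adherens junction, went from 371 and 635 to 10 and 9. The other 4 epithelial markers are keratins, of which *KRT7* was higher at 7 days than in SB by 1.06 on the log2 scale (adjusted p = 1.57e-05, limma), *KRT18* was lower by -0.56 (adjusted p = 0.000144), and *KRT8* and *KRT19* did not pass the test (0.11 and 0.24). The 5 haematopoietic markers summed to at most 27 in any library and the 4 cardiac muscle markers found in the table to at most 32, cardiac muscle being the other tissue rich in desmosomes. The 6 squamous or basal markers summed to 218 to 649, with *TP63*, *KRT5* and *NGFR* below a mean of 10, and the 4 endothelial markers to 93 to 294. The 4 cornified-layer markers found in the table summed to 782 to 984, mostly *KRT10* (668 to 922), and *KRT1* was at 0 in each of the 6 libraries. The sum therefore hides the low markers of that list. *IVL* had 49 and 81 in SB, 11 and 17 at 3 days, and 26 and 29 at 7 days, whereas *FLG* had 13 and 33, 26 and 26, and 43 and 37. In bulk libraries, fewer cells expressing a gene and less RNA of it per cell cannot be told apart.

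The pair of libraries within a group also differed from each other with the GC content of the genes. Over 13876 genes, the log2 difference between library 1 and library 2 had a Spearman's rho with transcript GC content of -0.197 for the SB pair, -0.626 for the 3-day pair and 0.613 for the 7-day pair. The desmosome genes span this range, from 38.9% GC in the longest transcript of *DSC2* to 61.5% for *JUP* and 66.7% for *PKP3*, and where correcting each library for GC and length changed the call of a desmosome gene, the corrected value is given beside it, with those of some other genes; this alternative was added once the data had been seen.

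In outline, *JUP* and *PKP1* were higher under TGFβ at both times, *DSC2* was higher at 7 days, *PKP3* was lower at both times and *PKP2* was lower at 7 days, while *DSG2*, *PERP* and, against SB, *DSP* did not pass the test. *DSG3* and *DSC3* were too low to test. The test was limma on log2(normalized count + 1), run on 14395 genes whose mean was at least 10, with Benjamini-Hochberg adjustment over all of them at 0.05, and 8 of the 10 desmosome genes entered it. At 3 days of TGFβ against SB, 3 of these 8 passed, 2 higher and 1 lower, where 29.0% of all genes tested passed, 14.9% higher and 14.0% lower. When libraries were instead scaled to the same total, the calls over all genes at 3 days were 1819 higher and 2552 lower, against 2149 and 2021, and the desmosome genes again had 2 higher and 1 lower. At 7 days against SB, 5 of 8 passed, 3 higher and 2 lower, and the background was 54.5%, with 27.7% higher and 26.9% lower. At 7 days against 3 days, 5 of 8 passed, 2 higher and 3 lower, with a background of 33.2%, of which 17.0% higher and 16.2% lower. The share of desmosome genes past the threshold at 7 days against SB was thus near that of all genes, and nothing about the group as a whole is read from it. The median log2 fold change of the 8 genes was 0.16, 0.01 and -0.05 in the 3 comparisons, beside -0.02, -0.0008 and 0.02 for all genes tested.

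**Figure D1:**
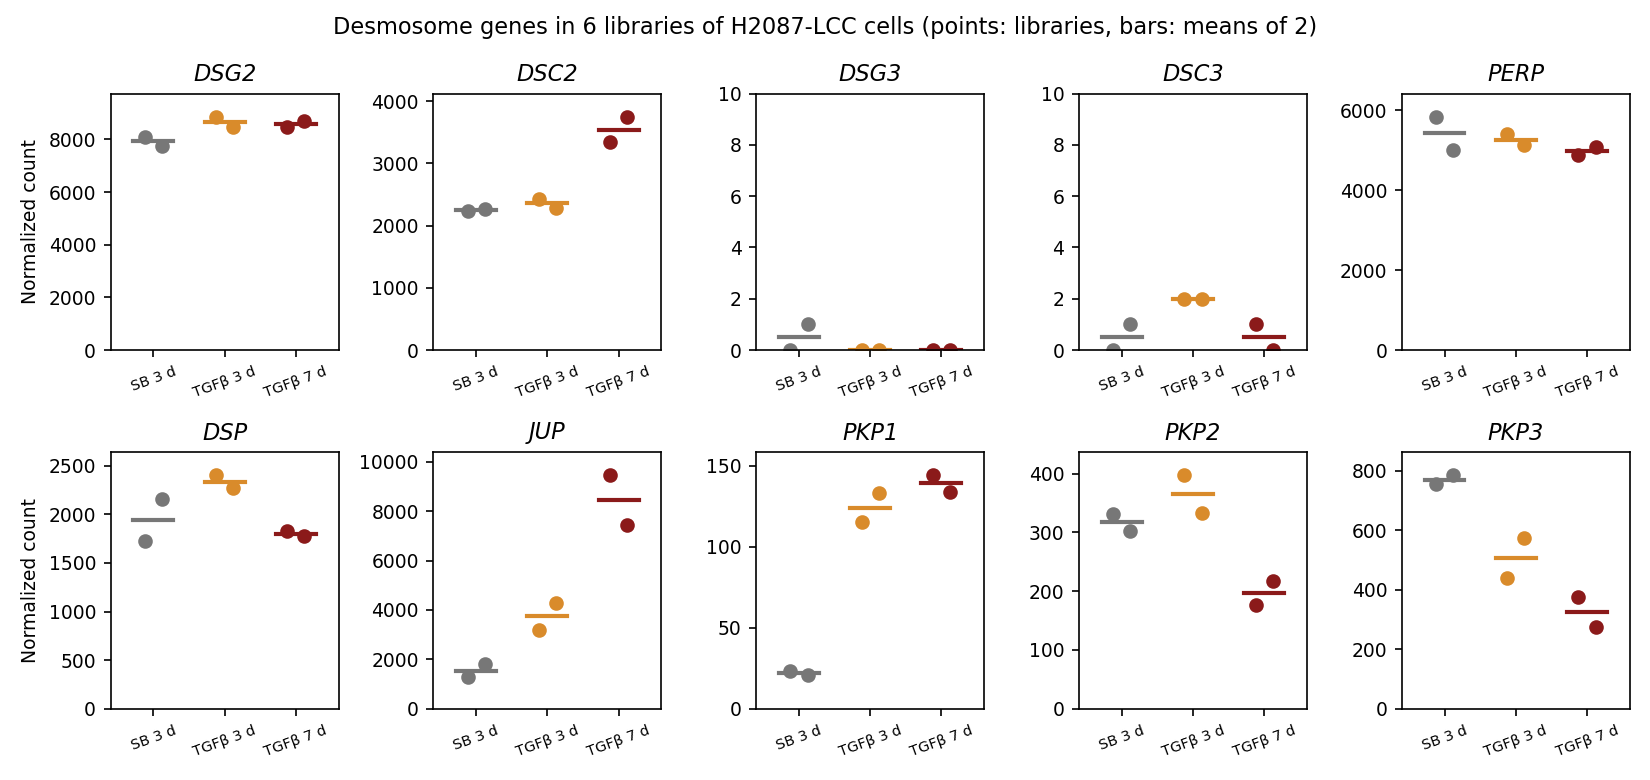
Normalized counts of the 10 desmosome genes (vertical axes, each from 0 and on its own linear scale) in the 2 libraries of each group (SB, TGFβ at 3 days, TGFβ at 7 days); points are libraries and bars the means of 2. *JUP* climbs from between 1271 and 1803 in SB to between 7419 and 9451 at 7 days, *PKP3* steps down from 756 and 785 to 374 and 274, and *DSG3* and *DSC3* stay at 2 or less.

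Among the desmosomal cadherins, *DSG2*, the desmoglein of simple epithelia, had normalized counts of 8107 and 7755 in SB, 8856 and 8465 after 3 days of TGFβ, and 8461 and 8690 after 7 days. All 4 TGFβ libraries lay above both SB libraries, but by little, and the 2 TGFβ times overlapped. The log2 fold change against SB was 0.13 at 3 days (adjusted p = 0.252, limma) and 0.11 at 7 days (95% confidence interval -0.06 to 0.28, adjusted p = 0.241). A rise of more than 0.28 or a fall of more than 0.06 lay outside this interval, which does not measure the spread between separate cultures. Over the same libraries *CDH1* fell by 5.54 on the log2 scale (adjusted p = 2.78e-08), and the ratio of *DSG2* to *CDH1* per kb of exon went from 14.0 and 7.82 in SB to 202 and 226 at 3 days and 542 and 618 at 7 days. The 7-day ratios rest on *CDH1* normalized counts of only 10 and 9, so their size is uncertain. Under the alternatives that kept every library, the *CDH1* change at 7 days against SB ran from -5.65 to -5.08.

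*DSC2*, the widely expressed desmocollin, had normalized counts of 2229 and 2273 in SB, 2422 and 2290 at 3 days, and 3336 and 3747 at 7 days. Both 7-day libraries stood above the 4 others, whereas the 3-day libraries lay just over the SB ones. The mean at 7 days was 1.57 times that of SB, a log2 fold change of 0.65 (95% confidence interval 0.45 to 0.85, adjusted p = 0.000106, limma), and 1.50 times that at 3 days (0.59, adjusted p = 0.000852). At 3 days against SB the log2 fold change was 0.07 (adjusted p = 0.640). With the correction for GC content and length the 7-day change against SB was 0.34 (adjusted p = 0.00176), still past the threshold but under 0.45, the lower end of the interval without it. The ratio of *DSC2* to *DSG2* per kb of exon was 0.209 and 0.223 in SB, 0.208 and 0.205 at 3 days, and 0.299 and 0.327 at 7 days, without overlap between 7 days and the other groups.

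*DSG3* and *DSC3*, the cadherins typical of the lower layers of stratified epithelium, were at the limit of detection. *DSG3* had a normalized count of 1 in the second SB library and 0 in the other 5. *DSC3* had 0 and 1 in SB, 2 and 2 at 3 days and 1 and 0 at 7 days. All of these values are below 3, the level taken here as the floor, and no fold change was formed from them.

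The desmosomal cadherin genes lie side by side on chromosome 18 in the order *DSC3*, *DSC2*, *DSC1*, *DSG1*, *DSG4*, *DSG3* and *DSG2*, over 560 kb in the GENCODE annotation of GRCh37, the build named hg19 in the labels. *DSC2* lies at chr18:28638806-28682485 on the minus strand and *DSG2* at chr18:29078140-29128971 on the plus strand. The 5 genes around and between them, *DSC3*, *DSC1*, *DSG1*, *DSG4* and *DSG3*, did not go above a normalized count of 3 in any of the 6 libraries. *DSG1*, the desmoglein of the upper epidermis, was at 0 in all 6, and *DSC1* had 2 or 3 in 5 libraries and 0 in the second 7-day library. Within each class a single gene thus made up nearly all of the normalized count per kb: *DSC2* held 99.6% to 99.8% of the desmocollins as group means, while *DSG2* was the only desmoglein above 1 in any library. Past the *DSG2* end, *TTR*, which encodes transthyretin, was at 0 or 1, and the next genes *B4GALT6* (1682 to 2125) and *TRAPPC8* (991 to 1313) were expressed. *TRAPPC8* was higher at 7 days than in SB by 0.30 on the log2 scale (adjusted p = 0.0293, limma), a call lost under 3 of 11 alternatives that kept every library and without any 1 of 3 libraries, with adjusted p-values up to 0.235; with the GC and length correction it was 0.18. The library kit does not mark the strand, so reads of *DSG2* and those of the antisense gene *DSG2-AS1*, which covers 2.0% of its exon bases, cannot be told apart, and the same holds for 0.6% of those of *DSP*. Other genes annotated on the same strand share 4.4% of the exon bases of *DSC2* and 4.1% of those of *PKP2*.

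**Figure D2:**
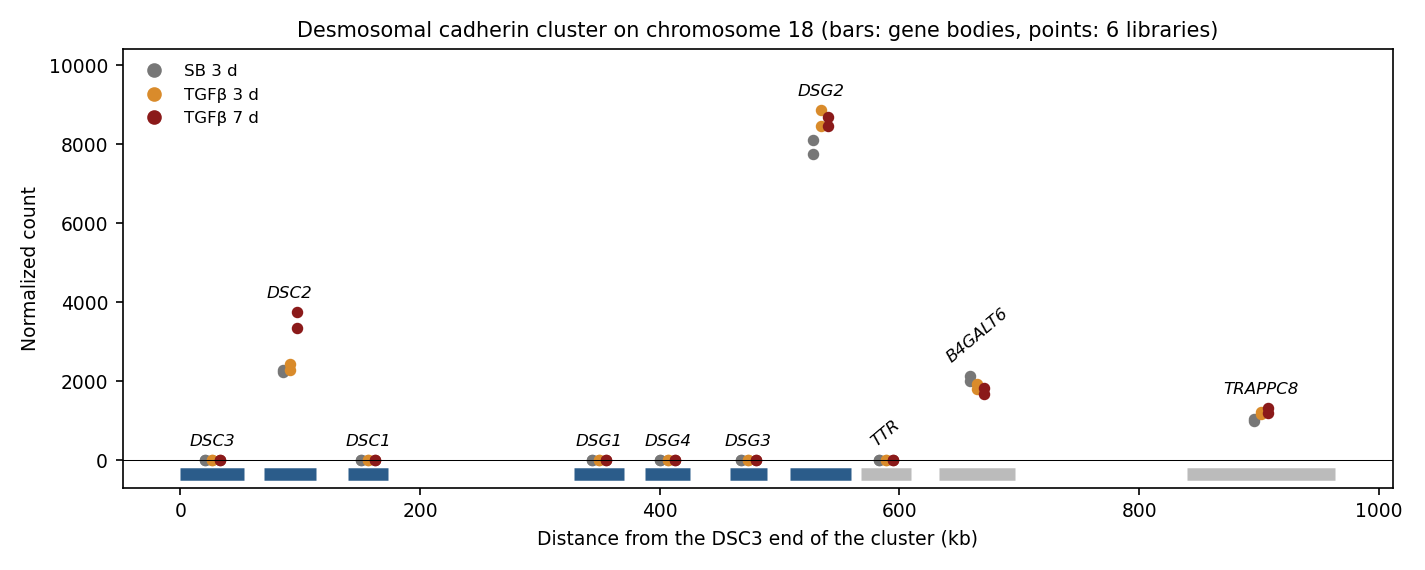
Normalized counts (vertical axis, linear) in the 6 libraries, drawn over each gene of the cadherin cluster on chromosome 18, with distance in kb from the DSC3 end on the horizontal axis; bars under the axis are gene bodies, blue for desmosomal cadherins and grey for neighbours, and points are libraries coloured by group. Between *DSC3* and *TTR*, *DSC2* and *DSG2* alone rise off the axis in all 6 libraries, and for *DSC2* the 7-day libraries (3336 and 3747) stand above the rest.

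*PERP*, at chr6:138409642-138428556 on the minus strand, had normalized counts of 5836 and 5011 in SB, 5418 and 5119 at 3 days, and 4879 and 5077 at 7 days. The SB libraries were farther apart than the means of any 2 groups, and the groups of either TGFβ time overlapped with SB. The log2 fold change at 7 days against SB was -0.12 (95% confidence interval -0.32 to 0.08, adjusted p = 0.294, limma), and at 3 days -0.04 (adjusted p = 0.795).

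*DSP*, the gene of desmoplakin, at chr6:7541571-7586947 on the plus strand, had normalized counts of 1728 and 2155 in SB, 2403 and 2273 at 3 days, and 1827 and 1773 at 7 days. The 3-day libraries were the highest of the 6, and both 7-day libraries fell between the SB ones. Against SB the log2 fold change was 0.28 at 3 days (95% confidence interval 0.03 to 0.52, adjusted p = 0.0839, limma) and -0.10 at 7 days (-0.34 to 0.14, adjusted p = 0.465). Between 7 and 3 days *DSP* fell by 0.38 on the log2 scale (adjusted p = 0.0223). That call is not firm: it was lost when any 1 of the 4 libraries of these groups was left out (adjusted p 0.0510 to 0.129). With the GC and length correction the difference between 7 and 3 days was -0.59 (adjusted p = 0.000656), and *DSP* was also lower at 7 days than in SB, by -0.45 (adjusted p = 0.00111). Without the second SB library, the 3-day rise over SB passed at 0.44 (adjusted p = 0.0118).

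*JUP*, which encodes plakoglobin, the armadillo protein shared by desmosomes and adherens junctions, changed the most in absolute normalized counts among the 10 genes. The gene lies at chr17:39910856-39943183 on the minus strand. Its normalized counts were 1271 and 1803 in SB, 3186 and 4297 at 3 days of TGFβ, and 9451 and 7419 at 7 days. The 3 groups did not overlap, and the lowest 7-day library was above the highest 3-day library. The mean at 3 days was 2.43 times that of SB, a log2 fold change of 1.29 (95% confidence interval 0.91 to 1.67, adjusted p = 0.000174, limma). At 7 days it was 5.49 times that of SB (2.47, interval 2.08 to 2.85, adjusted p = 3.72e-07) and 2.25 times that at 3 days (1.18, interval 0.79 to 1.56, adjusted p = 0.000588). *JUP* is rich in GC, and in each group the library that was higher for it was also the one that was higher for GC-rich genes. With the GC and length correction its log2 fold change was 1.34 at 3 days, 2.35 at 7 days and 1.01 between them, all past the threshold, and no other alternative removed a call (adjusted p at most 0.0338).

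For comparison, *CTNNB1*, which encodes β-catenin, the relative of plakoglobin at the adherens junction, was picked after its values were seen and went from 20035 and 26079 in SB to 20107 and 18812 at 3 days and 25150 and 26372 at 7 days. Its log2 fold change against SB was -0.23 at 3 days (adjusted p = 0.137, limma) and 0.17 at 7 days (adjusted p = 0.207), and it was higher at 7 than at 3 days by 0.41 (adjusted p = 0.0158), a change in the direction of that of *JUP*. Per kb of exon, the ratio of *JUP* to *CTNNB1* was 0.151 and 0.165 in SB, 0.377 and 0.543 at 3 days, and 0.894 and 0.669 at 7 days. Its level depended on the length used. With the longest transcript it was 0.0885 and 0.0964 in SB, 0.221 and 0.319 at 3 days, and 0.524 and 0.392 at 7 days. The ratio of *JUP* to *DSP* per kb was 2.03 and 2.31 in SB, 3.65 and 5.21 at 3 days, and 14.3 and 11.5 at 7 days. Neither ratio overlapped between any of the groups, and both were larger at 7 days than in SB.

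The plakophilins, the other armadillo proteins of the desmosomal plaque, moved in opposite directions. *PKP1*, the plakophilin of stratified epithelia, at chr1:201252580-201302121 on the plus strand, had normalized counts of 23 and 21 in SB, 115 and 133 at 3 days, and 144 and 134 at 7 days. Each TGFβ library held at least 115, against at most 23 in SB, and the 7-day libraries were only a little above those at 3 days. The means were 5.64 times that of SB at 3 days (log2 fold change 2.44, 95% confidence interval 1.97 to 2.91, adjusted p = 4.86e-06, limma) and 6.32 times at 7 days (2.61, interval 2.14 to 3.07, adjusted p = 1.23e-06). Between 7 and 3 days the difference was 0.17 (interval -0.30 to 0.63, adjusted p = 0.582). The 3-day change against SB was the largest of the 8 genes tested on the log2 scale, while the normalized count of *PKP1* remained below that of *PKP2* and *PKP3* in all 6 libraries.

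*PKP3*, the plakophilin found in most epithelia, at chr11:392614-404908 on the plus strand, went the other way. Its normalized counts were 756 and 785 in SB, 439 and 574 at 3 days, and 374 and 274 at 7 days, with no overlap between the groups. At 7 days the mean was 0.421 times that of SB, a log2 fold change of -1.26 (95% confidence interval -1.64 to -0.89, adjusted p = 6.82e-05, limma), and this call held under each alternative run. At 3 days against SB the log2 fold change was -0.62 (adjusted p = 0.0175), and this call was lost without either SB library or without the first 3-day library (adjusted p 0.0564, 0.0784 and 0.158). At 7 days against 3 days it was -0.65 (adjusted p = 0.0130), which was lost without the second 3-day library or the second 7-day library (adjusted p 0.109 and 0.147).

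*PKP2*, the plakophilin of simple epithelia and heart muscle, at chr12:32943679-33049732 on the minus strand, was lowest at 7 days. Its normalized counts were 332 and 302 in SB, 397 and 333 at 3 days, and 177 and 218 at 7 days, so that both 7-day libraries lay below the other 4. The log2 fold change against SB was 0.20 at 3 days (adjusted p = 0.389, limma) and -0.69 at 7 days (95% confidence interval -1.04 to -0.33, adjusted p = 0.00346). At 7 days against 3 days *PKP2* fell by 0.88 on the log2 scale (interval -1.24 to -0.53, adjusted p = 0.00190).

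**Figure D3:**
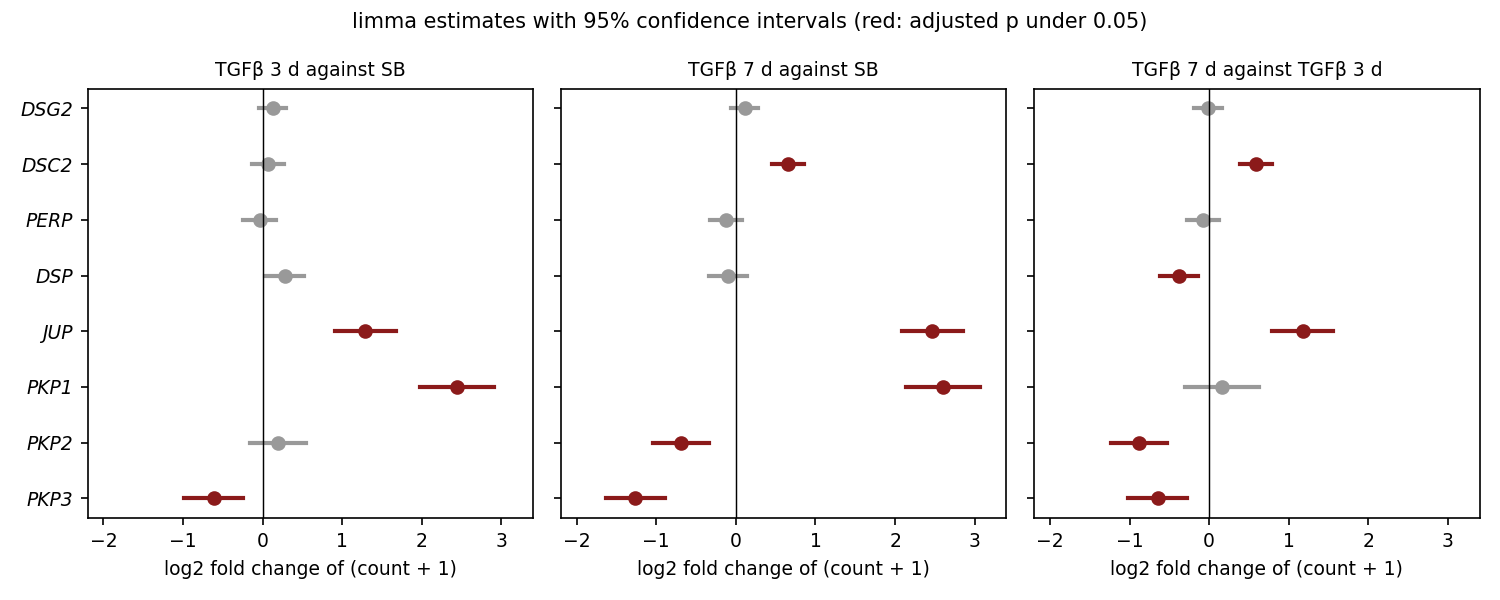
log2 fold changes of (normalized count + 1) (horizontal axes) for the 8 desmosome genes tested, with 1 panel for each pair of groups compared; points are limma estimates, lines 95% confidence intervals, and red marks an adjusted p under 0.05. *PKP1* sits at 2.44 and 2.61 against SB and at 0.17 between the TGFβ times, whereas *JUP* keeps a change of 1.18 between them.

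Per kb of exon, so that genes of unlike length can be set beside each other, the plakophilin class changed its makeup. *PKP3* held 84.7% and 86.3% of the summed plakophilin level in the SB libraries, 67.0% and 73.8% at 3 days, and 70.9% and 62.8% at 7 days. *PKP1* held 1.57% and 1.41% in SB, 10.7% and 10.4% at 3 days, and 16.7% and 18.8% at 7 days, without overlap between groups, while *PKP2* held 12.3% to 22.3% with overlapping groups. *PKP3* remained the most abundant of the 3 per kb in each library. The summed level of the 3 per kb was 235 and 240 in SB, 173 and 205 at 3 days, and 139 and 115 at 7 days. Within *JUP* and the plakophilins together, *JUP* made up 52.2% and 60.4% per kb in SB, 78.9% and 80.9% at 3 days, and 93.2% and 92.9% at 7 days. With the length of the longest transcript in place of all exons, the group means for *JUP* were 55.2%, 78.7% and 92.8%, and those of *PKP1* among the plakophilins 1.15%, 7.95% and 13.8%.

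**Figure D4:**
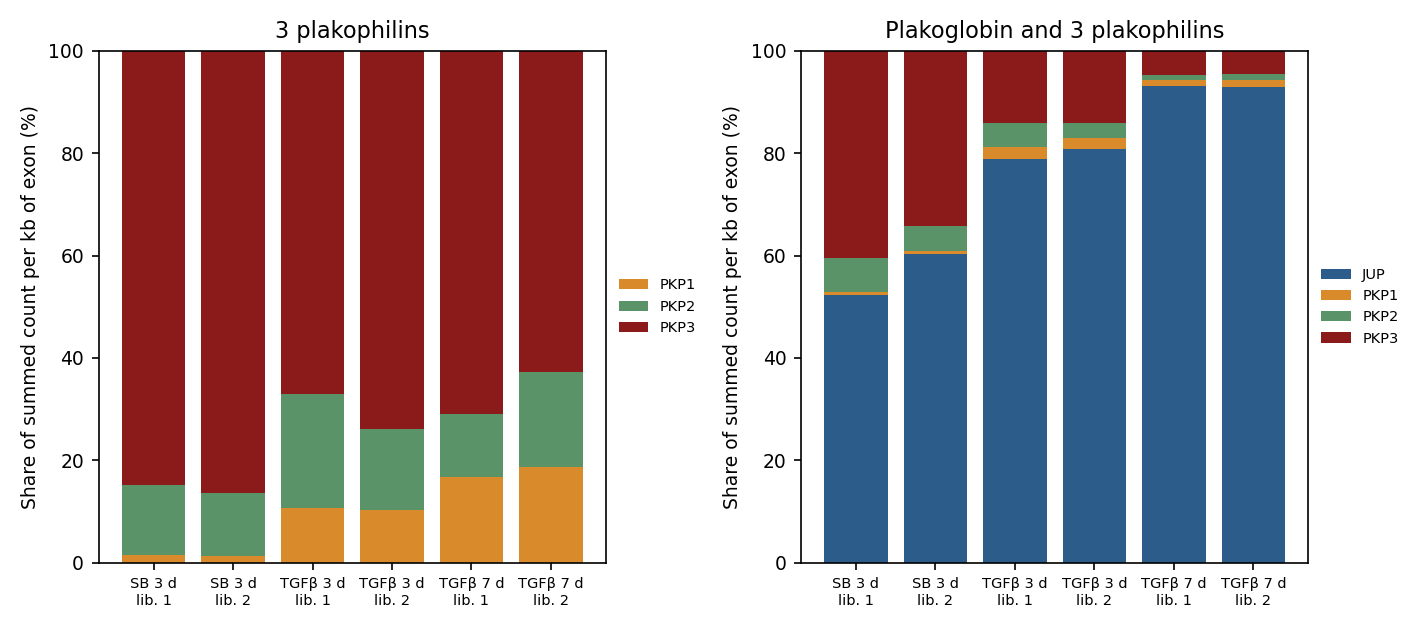
Shares (vertical axes, percent, from 0 to 100) of the summed normalized count per kb of exon held by each of the 3 plakophilins (left) and by plakoglobin (*JUP*) and the plakophilins (right), with 1 stacked bar for each of the 6 libraries. The *PKP1* share widens from 1.57% and 1.41% in SB to 16.7% and 18.8% at 7 days, and the *JUP* share from 52.2% and 60.4% to 93.2% and 92.9%.

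Across all 10 genes, the order of the levels per kb of exon also shifted. In SB the group means ran from *PERP* (1292) and *DSG2* (836) through *JUP* (311), *PKP3* (203), *DSC2* (180) and *DSP* (143) to *PKP2* (30.8) and *PKP1* (3.54), and in each neighbouring pair down to *PKP1* both libraries of one gene lay above both of the next. At 3 days *JUP*, at 757, was still behind both of these, and *PKP3* (133) had moved below *DSC2* (188) and *DSP* (172). At 7 days *JUP* was first at 1707, above *PERP* (1186), *DSG2* (903), *DSC2* (283), *DSP* (132) and *PKP3* (85.4), and *PKP1* (22.4) was just above *PKP2* (19.2). The last of these orders depended on the length used: with the longest transcript *PKP2* (45.3) stood above *PKP1* (25.5) at 7 days. By that length *DSG2* came before *PERP* in all 3 groups, with overlapping libraries in SB, and *DSP* came before *DSC2* in SB and at 3 days, with overlapping libraries in SB, while *JUP* was again first at 7 days. The summed level of all 10 per kb of exon was 3042 and 2955 in SB, 3412 and 3536 at 3 days, and 4506 and 4171 at 7 days. As group means the sum went from 2999 in SB to 4339 at 7 days, and *JUP* alone from 311 to 1707. Over the same groups *PERP* went from 1292 to 1186 and *PKP3* from 203 to 85.4, so the sum does not describe the 10 genes as a group.

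To show the sequence at the start of the genes that rose, the promoter windows of *JUP* and *PKP1* are printed beside that of *DSP*, which did not differ from SB past the threshold. Each holds 250 bases before and 50 from a gene start, 5′ to 3′ on the gene's strand, from the RefSeq annotation of GRCh38.p14, and 8 of the 10 genes matched, with 10 windows; *PKP2* and *PKP3* have none among them. Capitals mark matches on either strand to 4 motifs: the E2 box CACCTG, the core bound by SNAI and ZEB factors, the GRHL core ACCGGTT, the AP-1 site TGANTCA and the GC box GGGCGG. The windows are chr17:41785927-41786226 and chr17:41786662-41786961, both minus strand, for *JUP*, chr1:201283256-201283555, plus strand, for *PKP1*, and chr6:7541421-7541720, plus strand, for *DSP*.
JUP, downstream start: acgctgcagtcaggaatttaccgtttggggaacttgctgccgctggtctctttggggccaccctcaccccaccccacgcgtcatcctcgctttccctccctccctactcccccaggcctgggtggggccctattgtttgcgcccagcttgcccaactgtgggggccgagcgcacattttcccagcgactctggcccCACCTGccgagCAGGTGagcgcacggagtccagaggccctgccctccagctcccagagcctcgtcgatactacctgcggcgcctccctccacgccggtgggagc
JUP, upstream start: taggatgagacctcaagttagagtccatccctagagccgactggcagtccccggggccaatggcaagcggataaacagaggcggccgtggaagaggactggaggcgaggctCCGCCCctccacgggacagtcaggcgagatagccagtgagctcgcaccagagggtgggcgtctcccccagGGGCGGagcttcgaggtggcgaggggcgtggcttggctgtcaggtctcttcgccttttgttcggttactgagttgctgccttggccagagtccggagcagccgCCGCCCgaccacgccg
PKP1: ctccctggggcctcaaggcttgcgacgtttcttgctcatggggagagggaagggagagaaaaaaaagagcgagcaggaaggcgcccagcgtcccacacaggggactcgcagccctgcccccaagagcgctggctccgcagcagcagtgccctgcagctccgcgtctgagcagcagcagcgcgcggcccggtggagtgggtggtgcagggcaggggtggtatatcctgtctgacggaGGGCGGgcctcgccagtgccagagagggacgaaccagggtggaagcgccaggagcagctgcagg
DSP: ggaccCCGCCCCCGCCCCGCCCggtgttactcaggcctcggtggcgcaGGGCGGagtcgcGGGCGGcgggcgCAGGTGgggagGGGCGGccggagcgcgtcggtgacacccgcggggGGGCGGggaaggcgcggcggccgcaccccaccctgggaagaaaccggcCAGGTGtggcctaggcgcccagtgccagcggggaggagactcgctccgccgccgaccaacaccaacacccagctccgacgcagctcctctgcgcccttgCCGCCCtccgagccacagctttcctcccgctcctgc

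The downstream *JUP* window held 2 E2 boxes, with first bases at -54 and -43 from the gene start, and the upstream one 3 GC boxes and no E2 box. The *PKP1* window held 1 GC box at -14 and no E2 box, and the *DSP* window 2 E2 boxes, at -178 and -85, with 8 GC boxes. An E2 box also stood in the *DSG2* window (2 matches) and in 1 of the 2 *DSC2* windows, and an AP-1 site in that of *PERP* at -101. No window of the 10 held the GRHL core, and the windows of *DSC3* and *DSG3* held none of the 4 motifs. Of 35116 promoter windows of the same length, 20.6% held an E2 box, 0.8% the GRHL core, 7.7% an AP-1 site and 45.0% a GC box. E2 boxes were thus found for *JUP* and *DSC2*, which were higher at 7 days, and for *DSP* and *DSG2*, which did not pass the test against SB, and a match describes letters in the window, not binding.

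Factors known to act on epithelial junction genes were measured in the same libraries. Of 14 listed, 12 were in the table and 8 were tested. At 7 days against SB all 8 passed, 3 higher and 5 lower (at 3 days 7 passed, 4 higher and 3 lower). Of all genes tested, 54.5% passed at 7 days and 29.0% at 3 days. *SNAI1*, a repressor of E-cadherin, had normalized counts of 51 and 68 in SB, 196 and 247 at 3 days, and 359 and 276 at 7 days, with 7 days higher than SB by 2.40 on the log2 scale (adjusted p = 2.19e-06, limma). *GRHL3*, a grainyhead factor of epithelial differentiation, had 99 and 112 in SB, 13 and 18 at 3 days, and 13 and 10 at 7 days (-3.10, adjusted p = 7.19e-06). The median log2 fold change of these 8 was 0.30 at 3 days and -0.37 at 7 days.

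Other genes tied to the desmosome, listed apart from the 10, numbered 11, of which 8 were tested. At 7 days against SB 5 passed, 3 higher and 2 lower, with a median of 0.07, and at 3 days 4 passed, 2 in each direction. Of all genes tested, 54.5% passed at 7 days and 29.0% at 3 days, and nothing about the list is read from its counts. *PPL*, which encodes periplakin, a plakin like desmoplakin, had 639 and 926 in SB, 207 and 317 at 3 days, and 409 and 369 at 7 days, and was lower at 7 days by -0.98 (adjusted p = 0.00191, limma). *CDSN*, the gene of corneodesmosin, had 20 and 25 in SB and 40 and 47 at 7 days (0.92, adjusted p = 0.0141), a call lost without the first SB library or the second 7-day library (adjusted p 0.0524 and 0.104). Of the exon bases of *CDSN*, 93.7% overlap *PSORS1C1* on the other strand, and without strand the reads of these genes cannot be told apart. Of 12 genes that regulate desmosomes, all tested, 7 passed at 7 days against SB, 6 higher and 1 lower, with a median of 0.24. That count, too, stands beside 54.5% of all genes, and nothing about these regulators as a list is read from it. *TGM2*, a transglutaminase that cross-links proteins, went from 14253 and 15716 in SB to 14703 and 16861 at 3 days and 29969 and 26925 at 7 days (0.92 against SB, adjusted p = 8.30e-06), and *PRMT1*, an arginine methyltransferase, was the gene that was lower (-0.77, adjusted p = 0.000169).

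The keratins are the filaments to which desmosomes attach. Of 9 listed, 7 had a mean of at least 10, but *KRT14* reached it only through the TGFβ libraries, so a difference was built into its being tested, and it is left out of the counts here. Of the other 6, at 7 days against SB 4 passed, 2 higher and 2 lower, with a median of 0.18. Among all genes tested 54.5% passed, and nothing about the keratins as a list is read from their count. *KRT14*, of basal cells, was at 0 in both SB libraries, 15 and 10 at 3 days, and 41 and 22 at 7 days, with no fold given against a group at 0. *KRT6A*, a keratin of activated keratinocytes, went from 16 and 15 in SB to 48 and 48 at 7 days (log2 fold change 1.57, adjusted p = 0.000973, limma). *KRT15*, also of basal cells, went the other way, from 443 and 617 in SB to 166 and 247 at 3 days and 265 and 246 at 7 days (-1.03 at 7 days, adjusted p = 0.00120). *KRT5*, the usual partner of *KRT14*, was at most 5. These 4 keratins are also in the squamous or basal marker list, whose summed level was 466 and 649 in SB, mostly *KRT15*, and 330 to 364 at 7 days.

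The hemidesmosome, which fixes the cell to the basement membrane, and the adherens junction were the other anchoring junctions described. Of the 9 hemidesmosome genes, all tested, 8 passed at 7 days against SB and all of these were higher, the median log2 fold change being 0.81. At 3 days 7 were higher and 1 lower (median 0.96). Of all genes tested, 27.7% were called higher and 26.9% lower at 7 days, and 14.9% higher and 14.0% lower at 3 days. *COL17A1*, the transmembrane collagen of this junction, had 80 and 62 in SB, 179 and 206 at 3 days, and 247 and 252 at 7 days (1.81 at 7 days, adjusted p = 8.24e-06, limma). *LAMA3*, a chain of its laminin ligand, had 464 and 609 in SB and 1132 and 1141 at 7 days (1.09, adjusted p = 2.79e-05), or 0.68 on the log2 scale with the GC and length correction. Of the 10 adherens junction genes, 9 were tested, and 6 passed at 7 days against SB, 4 higher and 2 lower, with a median of 0.17. Among all genes tested 54.5% passed there, and nothing about this list is read from its count. The ones that were lower were the cadherins *CDH1* and *CDH3*, the latter encoding P-cadherin (-1.09, adjusted p = 8.48e-06), and *CDH2*, which encodes N-cadherin, had at most 1 in any library. The highest value in this list was that of *CTNND1*, in which 39.1% of exon bases are shared with other genes on the same strand, so its reads are uncertain. Beside these lists the 8 desmosome genes had 3 higher and 2 lower at 7 days, and whether the lists differ from each other was not tested.

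**Figure D5:**
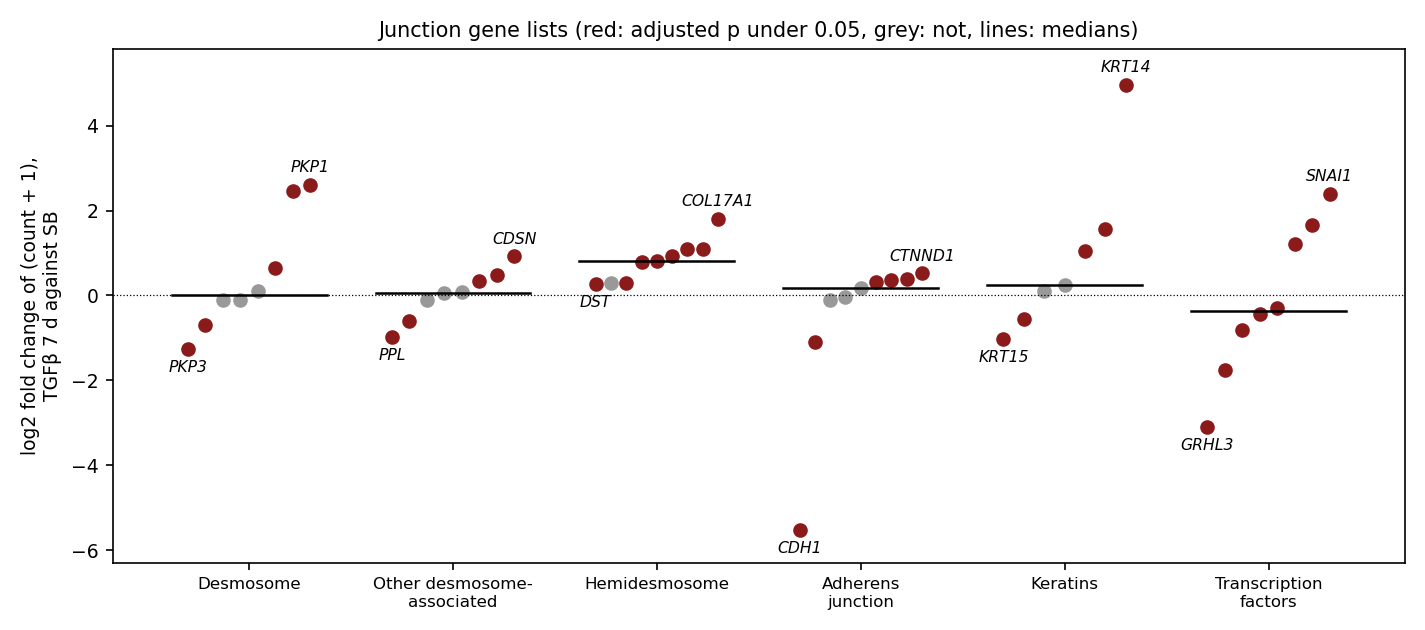
log2 fold changes of (normalized count + 1) at 7 days of TGFβ against SB (vertical axis) for the genes tested in 6 lists; each point is 1 gene, red where the adjusted p was under 0.05 and grey where not, and lines are medians. The desmosome genes spread from -1.26 (*PKP3*) to 2.61 (*PKP1*) around a median of 0.01, the hemidesmosome genes all lie above 0, with a median of 0.81, and *KRT14*, which is in the keratin median of the plot, has no fold of its own, since both SB libraries were at 0 and its value depends on the 1 added before the logarithm.

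Last, genes whose log2 values followed those of *DSP* and *PERP*, the plakin and the tetraspan member, most closely over the 6 libraries were looked up among the 11388 with a mean of at least 100. For *DSP*, these were *THRAP3*, *ERN1*, *CCDC174*, *DHX35* and *CDK6*, with Pearson's r from 0.96 to 0.97, and for *PERP*, *TIAL1*, *HNRNPA1*, *UXT*, *ATP5J* and *FAM13B*, with r from 0.985 to 0.997. None of them is a junction gene of the lists above. With 6 points that share libraries and 11388 genes to choose from, values this close to 1 describe the table only.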

How the data were processed

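PolyA RNA of H2087-LCC cells was sequenced after TruSeq RNA v2 preparation, a kit that does not mark the strand, in 3 groups of 2 libraries. Per the labels and the study's methods, the authors checked reads with FastQC 0.11.5, aligned them to hg19 with STAR, assigned them to genes with HTSeq 0.6.1p1 and normalized the counts by library size with DESeq2. The deposited values are recorded as a score, since the authors rounded the normalized counts to whole numbers; they are not read counts, so no count model was run and the depth in reads is not given.

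Genes averaging 10 or more (14395 of 21293) were compared on the log2(value + 1) scale with limma 3.58.1 (R 4.3.3), using its moderated test with an intensity trend. All 6 libraries shared one model of group means, leaving 3 residual degrees of freedom. The moderated test adds degrees of freedom from the spread of the other genes, so its p-values and intervals rest on more than these 3. P-values were adjusted by the Benjamini-Hochberg method over all genes tested, at 0.05. These steps were also run on simulated counts with few changed genes, one dispersion for all genes and no GC trend. That setting is unlike these data, so the run does not give the error rate here. Fold changes on this scale understate those of low genes. Levels per kb were divided by the union of exons in GENCODE on GRCh37; 18435 symbols were current and 1341 were matched through older ones, among them *MLLT4*, *PVRL1* and *PVRL2* of the adherens junction list.

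The 10 genes, the lists and the tests were chosen with earlier results of these data known. The rule for naming was all 10 genes, *CDH1* and *EPCAM*, and the 5 genes most like *DSP* and *PERP*. It also took the 2 genes of each list with the largest change at 7 days against SB among those past the threshold. *CTNNB1*, *CTNND1*, *CDH2*, *ITGB4*, *DST*, *KRT5*, *KRT7*, *KRT15*, other single markers and the neighbours in the cadherin cluster were named after their values were seen. For *CTNNB1*, *CTNND1*, *CDH2*, *ITGB4*, *DST*, *IVL*, *FLG*, *KRT7*, *KRT8*, *KRT15*, *KRT18* and *KRT19*, values under the alternatives are not given. These genes are also not in the counts of recomputed fold changes. The main fit did not pair libraries by replicate number. The correlation of the differences between library 1 and library 2 was 0.140 for SB and 3 days, -0.100 for SB and 7 days, and -0.292 for 3 and 7 days. These differences also followed GC content, with opposite sign at 3 days (rho -0.626) and 7 days (0.613). The correlations therefore cannot show whether libraries of equal number shared a culture or preparation. Alternatives were a pseudocount of 0.5 or 5, no filter, a mean of at least 50, 3 other scalings, limma without the trend, a fit of the 4 libraries compared, the replicate block, leaving out single libraries, and a GC and length correction (loess, span 0.5; 13876 genes); the last of these and the keratin counts without *KRT14* were added after the data had been seen. *ZEB2*, *TWIST1*, *DSG2-AS1*, *DSG1-AS1*, *DSCAS*, *LOR* and *MYH6* were listed but not analysed here. Plots used matplotlib 3.10.9 (Python 3.11.15).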

Additional observations from a re-analysis of the deposited data

Results flagged for a closer look

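For 5 desmosome genes the effect of TGFβ against SB differed between 3 and 7 days, by the limma test of 7 days against 3 days on the log2 scale. The difference was 1.18 for *JUP* (adjusted p = 0.000588) and 0.59 for *DSC2* (adjusted p = 0.000852), with both 7-day libraries above both 3-day libraries. It was -0.88 for *PKP2* (adjusted p = 0.00190), -0.65 for *PKP3* (adjusted p = 0.0130) and -0.38 for *DSP* (adjusted p = 0.0223), with both 7-day libraries below both 3-day libraries. Among all genes tested, 33.2% passed this test. With no SB library at 7 days, a later response to TGFβ and a change with time in culture cannot be told apart.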

How the results depend on the processing

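Of 360 recomputed fold changes of the desmosome genes, 343 stayed on their side of the threshold, 15 lost a call, 2 gained one and 0 reversed a call; of 615 for the other named genes, 574 were kept, 35 lost, 6 gained and 0 reversed. At 7 days against 3 days, 5 desmosome genes passed, but 3 with no filter on low values, 3 with limma without the trend, and 3 to 4 with 1 library left out; the genes lost were *DSP* and *PKP3*, and with no filter or no trend *PKP3* also lost its call at 3 days against SB (adjusted p = 0.101 and 0.0839). The replicate block gave 3, 5 and 5 desmosome genes past the threshold in the 3 comparisons, as without it, and changed none of their calls. Over all genes, 4775 passed at 7 days against 3 days, but 3042 with no filter, 3122 without the trend and 2294 to 3268 with 1 library left out; at 3 days against SB, 4170 passed, but 2608 without the first 3-day library. The GC and length correction, chosen after the data had been seen, turned the split at 7 days against 3 days from 2449 higher and 2326 lower to 2554 higher and 3709 lower; the cause was not tested. With 2 libraries a group, small differences such as those of *DSG2* and *PERP* did not pass the test, which does not show that they are absent.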
